A study of Homo sapiens with 11 samples.

Results

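The 10 genes followed here restrain mitogen-activated protein kinase (MAPK) signalling and were measured across 11 conditions in HEK293T cells, an established line of human embryonic kidney origin, labelled wild type. The 10 genes were chosen by name, as known negative regulators of these cascades, with earlier results of these data known. Each name was found once among the 38021 genes of the count table. They are 6 MAPK phosphatases (DUSP1, DUSP4, DUSP5, DUSP6, DUSP8 and DUSP10), 2 Sprouty genes (SPRY2 and SPRY4) and 2 Spred genes (SPRED1 and SPRED2). All 10 passed the filter on low counts.

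Cells were exposed for 6 h to vehicle (0.1% DMSO), to thapsigargin (Tg) at 500 nM, to the compound AA147 at 10 µM, or to the compound AA132 at 0.1, 0.3, 1, 3, 6, 10, 15 or 30 µM. Thapsigargin inhibits SERCA, which pumps calcium into the endoplasmic reticulum (ER), and is a standard inducer of ER stress, and the series examines AA147 and AA132 as small molecules that act on ER proteostasis. The labels list 1 sample per condition, while the count table has 3 numbered columns per condition, which makes 33. The labels do not say whether these are separate cultures, so p-values measure only the spread between these columns, called libraries here, which may be technical. All cells are of 1 line, so nothing here speaks for other cells. Library totals ran from 36358793 counts upward in all libraries but AA132 10 µM library 3, which had 32265437. Tg raised HSPA5, the ER chaperone BiP, by 3.52 on the log2 scale, and 30 µM AA132 raised HMOX1, heme oxygenase 1, by 3.94 (edgeR adjusted p = 1.97e-17 and 6.52e-09). The stress genes DDIT3 and DNAJB9 rose by 3.62 and 2.64 under Tg and by 1.34 and 0.64 at 30 µM AA132. Of the markers set for HEK293-type cells, NEFM, NEFL, VIM, KRT8 and KRT18 had at least 1378 counts in every library, LHX1 at least 269 and PAX2 only 15 to 56. Of these 7 markers, Tg called 1 higher and 4 lower (31.2% of all genes were called) and 30 µM AA132 called 1 higher and 3 lower (7.05% of all genes), and their part in the results below was not tested. The count of 4 at 30 µM was 1 without 30 µM library 1 and 2 without library 2 or 3 of that dose. The blood, liver and endothelial markers PTPRC, CD3E, ALB and PECAM1 had at most 5 counts, and the fibroblast markers COL1A2 and COL3A1 at most 2 and 21.

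MAPK cascades carry signals from receptors through Ras and Raf to the kinase ERK, and from stress sensors to the kinases JNK and p38. The DUSP phosphatases remove the activating phosphates from these kinases: DUSP1, DUSP4 and DUSP5 act in the nucleus, DUSP6 acts on ERK in the cytoplasm, and DUSP8 and DUSP10 prefer JNK and p38. Sprouty proteins dampen the path from receptor tyrosine kinases to Ras and Raf, and Spred proteins bring the Ras inhibitor neurofibromin to the membrane. Several of these genes, DUSP6, SPRY2 and SPRY4 among them, are themselves switched on by ERK activity and so close negative feedback loops.

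The upstream sequences of 4 phosphatase genes are shown because their means differed in direction at 6 to 15 µM AA132. DUSP1, DUSP8 and DUSP10 had higher means than in vehicle, and DUSP6 had lower means. By edgeR with the filter on low counts, DUSP8 and DUSP6 were not called at these doses. Each is the stretch of 250 bases before a RefSeq start site (GRCh38.p14, minus strand, read 5′ to 3′), at chr5:172771196-172771445 for DUSP1, chr11:1572272-1572521 for DUSP8, chr1:221742090-221742339 for DUSP10 and chr12:89352502-89352751 for DUSP6. Capitals mark the full cyclic AMP response element (CRE), TGACGTCA, the site of CREB and ATF family factors.
DUSP1: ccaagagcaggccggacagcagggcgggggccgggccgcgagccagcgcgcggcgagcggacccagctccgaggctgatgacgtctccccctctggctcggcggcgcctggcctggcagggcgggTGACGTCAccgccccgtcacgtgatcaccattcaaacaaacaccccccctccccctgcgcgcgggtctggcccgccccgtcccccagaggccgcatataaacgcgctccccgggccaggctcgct
DUSP8: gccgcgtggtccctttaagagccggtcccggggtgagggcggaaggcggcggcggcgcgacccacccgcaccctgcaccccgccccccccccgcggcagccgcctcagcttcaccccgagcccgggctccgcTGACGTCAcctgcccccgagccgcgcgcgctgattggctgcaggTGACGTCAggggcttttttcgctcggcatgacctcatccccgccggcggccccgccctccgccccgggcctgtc
DUSP10: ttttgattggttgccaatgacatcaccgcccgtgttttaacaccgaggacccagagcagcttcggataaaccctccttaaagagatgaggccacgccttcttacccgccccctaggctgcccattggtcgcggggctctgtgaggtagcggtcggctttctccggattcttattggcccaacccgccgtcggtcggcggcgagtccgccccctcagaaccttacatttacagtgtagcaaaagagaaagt
DUSP6: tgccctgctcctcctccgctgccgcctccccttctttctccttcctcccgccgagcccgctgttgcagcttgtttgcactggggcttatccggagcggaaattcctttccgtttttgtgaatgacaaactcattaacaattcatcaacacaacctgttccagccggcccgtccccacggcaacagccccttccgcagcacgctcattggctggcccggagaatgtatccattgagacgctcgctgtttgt
The DUSP1 stretch holds 1 CRE, from base -125 to -118 with the start site counted as 0, and the DUSP8 stretch holds 2, from -118 to -111 and from -74 to -67. RefSeq windows of 300 bases (250 before and 50 after a start site) were on hand for 8 of the 10 genes, 12 windows in all, and not for DUSP4 and DUSP5. A full CRE on either strand lay in 2 of the 12 windows, those of DUSP1 and DUSP8, against 1.85% of all 35116 such windows. The CRE half-site TGACG lay in 6 of the 12, against 24.55% of all windows. Those were windows of DUSP1, DUSP8, SPRY2, SPRY4, SPRED2 and another DUSP10 start site. The AP-1 site TGANTCA and the ATF4-type site TGATGNAAN each lay in 1 window, at another start site of SPRED2, against 7.71% and 3.61% of all windows. The antioxidant site TGACNNNGC, which can overlap a CRE half-site, lay in 3 windows (13.35% of all). These were windows of DUSP1, of SPRY4 and of another DUSP10 start site (221736851 to 221737150), whose sequence is not shown. The ETS site CCGGAAGT (4.14% of all windows), the ER stress element (0.08%) and the CArG box (1.29%) lay in none of the 12. A match says only that these letters are present.

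Per length, DUSP1 was the most abundant of the 10 in vehicle, at 39.1 ± 1.97 CPM per kb of canonical transcript (SD, n = 3), where CPM are counts scaled to a common library size. DUSP10 followed at 4.79 ± 0.45, SPRED2 at 3.93 ± 0.72 and SPRY2 at 3.37 ± 0.14 CPM per kb. SPRY4 was the least abundant, at 0.42 ± 0.03 CPM per kb, and the other 5 lay between 1.28 and 2.64. All levels below are in CPM without division by length and are compared only within a gene. In bulk RNA, fewer cells expressing a gene and less RNA per cell cannot be told apart.

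**Figure D1:**
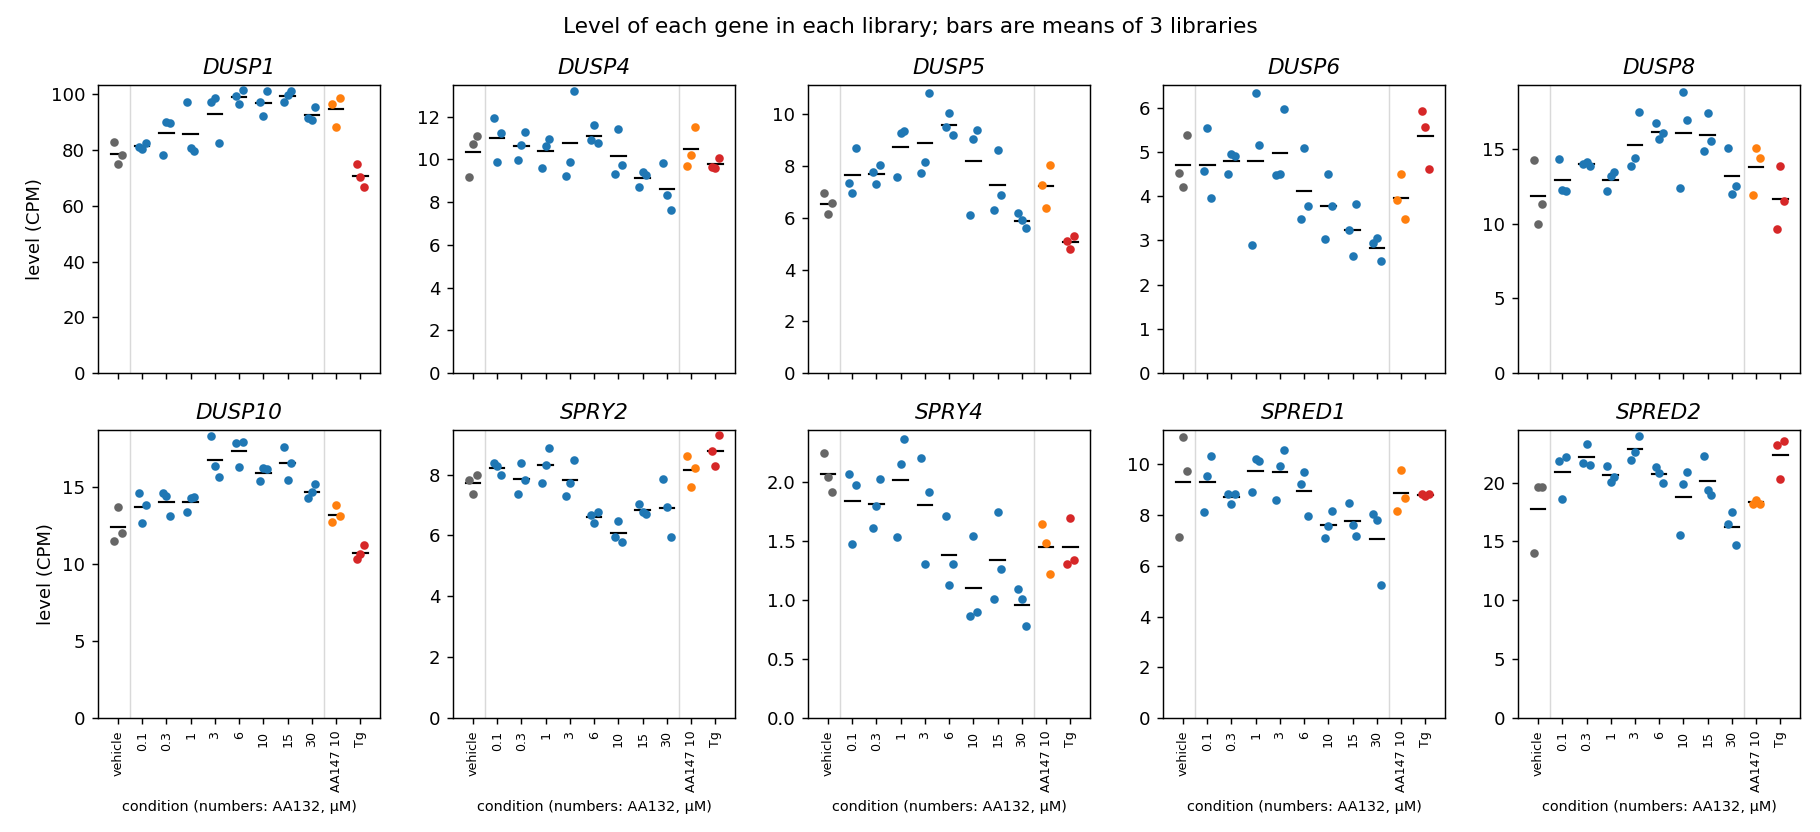
Level (CPM, linear axes from 0) of each gene in each of 3 libraries per condition, as points, with bars at the means; grey is vehicle, blue AA132 by dose in µM, orange AA147 and red Tg. DUSP1 and DUSP10 libraries at 6 µM AA132 all sit above vehicle, while DUSP6 and SPRY4 libraries at 30 µM AA132 all sit below it.

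Among the nuclear phosphatases, DUSP1 (chromosome 5, 172768096 to 172771195) acts on p38, JNK and ERK and is induced by many stresses. It was called higher at 6, 10, 15 and 30 µM AA132. Its vehicle libraries stood at 82.8, 74.9 and 78.2 CPM and those at 15 µM AA132 at 97.4, 99.6 and 101.3 CPM. The lowest library at each of 6, 10, 15 and 30 µM lay above the highest vehicle library. At 6 µM its log2 fold change was 0.33 (SE 0.07, with edgeR adjusted p = 0.0141). It was 0.30 at 10 µM (adjusted p = 0.0288), 0.34 at 15 µM (0.00717) and 0.24 at 30 µM (0.0472). At 3 µM it was also 0.24 but not called (edgeR adjusted p = 0.288), and libraries overlapped. The unadjusted edgeR p was 0.00295 at 3 µM and 0.00326 at 30 µM. DUSP1 was thus moderately higher, by 26.4% at its peak. With only vehicle and the dose compared in the fit, no DUSP1 call held (edgeR adjusted p = 0.248 at 15 µM). In the fit of all conditions, the 15 µM call held when any 1 of its 6 libraries was left out. The others did not: adjusted p rose to 0.0666 or 0.0824 at 6 µM without library 1 or 3, to 0.0662 or 0.134 at 10 µM without library 1 or 3, and to between 0.0877 and 0.142 at 30 µM without any 1 library of that dose. Without vehicle library 2 or 3 they rose to 0.0668 and 0.0553 at 6 µM, 0.0957 and 0.0778 at 10 µM, and 0.145 and 0.103 at 30 µM. With no filter on low counts the 30 µM value was 0.0693.

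DUSP5 (chromosome 10, 110497907 to 110511533), a nuclear phosphatase for ERK, had its highest mean at a middle dose. Its mean was 6.55 ± 0.41 CPM in vehicle, 9.60 ± 0.43 CPM at 6 µM AA132 and 5.90 ± 0.29 CPM at 30 µM (SD, n = 3). The 6 µM libraries, at 9.53, 10.1 and 9.22 CPM, did not overlap those of vehicle (6.96, 6.13 and 6.58) or of 30 µM (6.18, 5.91 and 5.61). That was a log2 fold change of 0.55 over vehicle at 6 µM (SE 0.14, edgeR adjusted p = 0.0474). The call was lost without any 1 library of the dose (adjusted p from 0.0984 to 0.182) and without vehicle library 2 (0.103) or 3 (0.101). The difference between 6 and 30 µM was not tested. DUSP4 (chromosome 8, 29333064 to 29350684), its nuclear relative, was called in no comparison by edgeR. Its mean was 10.3 ± 1.01 CPM in vehicle and 8.61 ± 1.14 CPM at 30 µM AA132, and its libraries overlapped.

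DUSP6 (chromosome 12, 89347235 to 89352501), a cytoplasmic phosphatase of ERK and a classical readout of ERK activity, fell at the highest AA132 dose. The vehicle libraries stood at 4.52, 4.21 and 5.38 CPM and those at 30 µM at 2.93, 3.05 and 2.52 CPM, with no overlap. Fitted, this was a log2 fold change of -0.73 (SE 0.21, edgeR adjusted p = 0.0276). At 15 µM it was -0.54 (adjusted p = 0.166), again with libraries that did not overlap. Libraries at the same low dose could differ widely, from 2.89 to 6.32 CPM at 1 µM. The 30 µM call was lost without any 1 library of that dose (adjusted p from 0.0595 to 0.0993) and without vehicle library 3 (log2 fold change -0.62, adjusted p = 0.109).

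Of the phosphatases that prefer JNK and p38, DUSP10 (chromosome 1, 221701424 to 221742089) rose under AA132 at the lowest dose at which any of the 10 genes was called. The vehicle libraries stood at 11.5, 13.7 and 12.0 CPM, those at 3 µM at 18.3, 16.4 and 15.7 CPM and those at 6 µM at 17.9, 16.3 and 17.9 CPM. Every library at 3, 6, 10, 15 or 30 µM lay above every vehicle library. Log2 fold changes were 0.43 at 3 µM (SE 0.09, edgeR adjusted p = 0.0351), 0.48 at 6 µM (adjusted p = 0.00102), 0.36 at 10 µM (0.0208) and 0.41 at 15 µM (0.00325). At 30 µM it was 0.24 and not called (adjusted p = 0.0781), though it was called without vehicle library 2 (0.0331) and by DESeq2 (0.0476). The 6 and 15 µM calls held when any 1 library was left out. Both were lost with only vehicle and that dose in the fit (edgeR adjusted p = 0.297 and 0.362). The 3 µM call was lost without library 1 (adjusted p = 0.398) or 2 (0.181) of that dose or vehicle library 1, 2 or 3 (0.0505, 0.072 and 0.0828). The 10 µM call was lost without library 2 (0.0787) or 3 (0.0869) of that dose or vehicle library 1 (0.0581) or 3 (0.0802), and with no filter on low counts (0.127).

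DUSP8 (chromosome 11, 1554051 to 1572271) also had its highest means at 6, 10 and 15 µM but was not called against vehicle by edgeR with the filter on low counts. Its mean was 11.9 ± 2.19 CPM in vehicle and 16.1 ± 0.52 CPM at 6 µM (log2 fold change 0.44, SE 0.14, adjusted p = 0.127). Vehicle library 1, at 14.3 CPM, stood above the other 2 at 9.99 and 11.3 CPM. Without it, DUSP8 was called at 6 µM (log2 fold change 0.60, adjusted p = 0.0153), at 10 µM (0.59, adjusted p = 0.0161) and at 15 µM (0.58, adjusted p = 0.0161). Leaving out 10 µM library 1 also gave a call at that dose (0.58, adjusted p = 0.0163). With no filter on low counts, edgeR called DUSP8 at 6, 10 and 15 µM from all libraries (adjusted p = 0.0237, 0.03 and 0.0242).

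SPRY4 (chromosome 5, 142310427 to 142326455), a Sprouty gene, had the largest fold change against vehicle among the 10. The vehicle libraries stood at 2.25, 2.04 and 1.91 CPM and those at 30 µM AA132 at 1.09, 1.01 and 0.78 CPM. Every library at 6, 10, 15 or 30 µM lay below every vehicle library. At 30 µM it fell by 1.10 on the log2 scale (SE 0.25, edgeR adjusted p = 0.00517), a call that held when any 1 of the 6 libraries was left out. That call was lost with only vehicle and 30 µM in the fit (edgeR adjusted p = 0.0808). At 10 µM the log2 fold change was -0.90 (adjusted p = 0.0546), which became a call without 10 µM library 2 (-1.23, adjusted p = 0.0148), by DESeq2 (0.0323) and with no filter on low counts (0.0343). SPRY4 had only 28 to 88 counts in a library, which limits the precision of its values.

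SPRY2 (chromosome 13, 80335976 to 80341126) stood at 7.81, 7.36 and 7.98 CPM in vehicle and at 5.96, 6.48 and 5.78 CPM at 10 µM AA132, with no overlap. The log2 fold change at 10 µM was -0.34 and was not called by edgeR (SE 0.10, adjusted p = 0.083), though it was by DESeq2 (0.048). Among the Spred genes, SPRED1 (chromosome 15, 38252836 to 38357249) had 9.31 ± 1.98 CPM in vehicle and 7.04 ± 1.56 CPM at 30 µM (log2 fold change -0.40, adjusted p = 0.075). Without vehicle library 1, the lowest of its group, SPRED1 was called at 30 µM (-0.56, adjusted p = 0.00559). SPRED2 (chromosome 2, 65310851 to 65432637) was called at no AA132 dose by edgeR and had 16.2 ± 1.45 CPM at 30 µM against 17.7 ± 3.25 CPM in vehicle. Its vehicle library 1, at 13.99 CPM, lay below the other 2, both at 19.6 CPM.

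**Figure D2:**
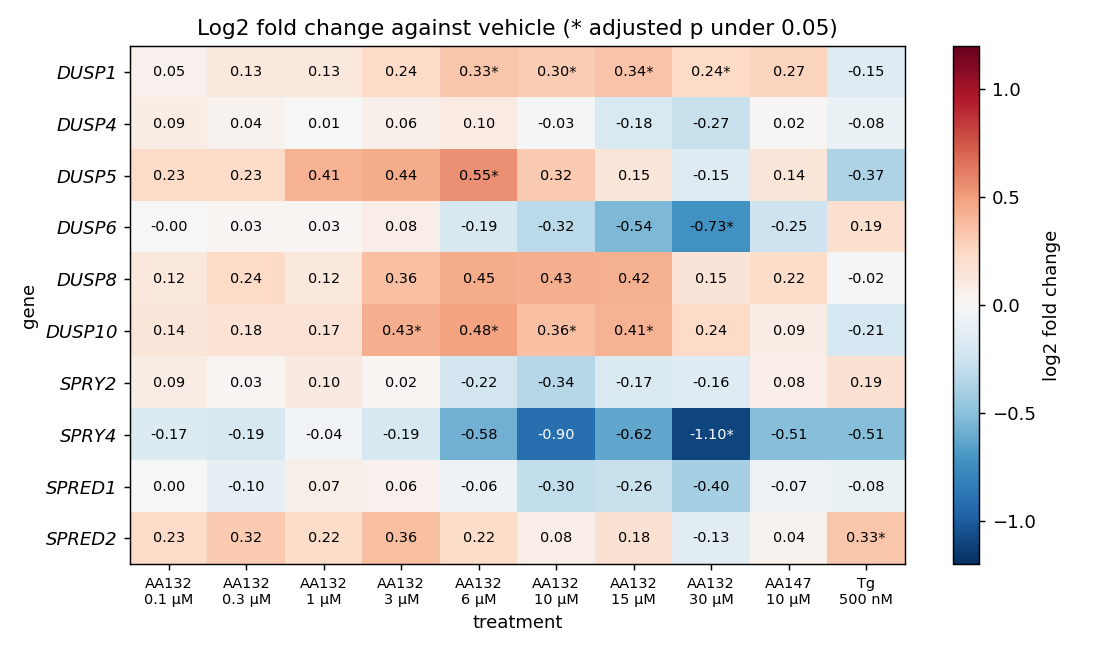
Fitted log2 fold change against vehicle for each gene (rows) and treatment (columns), red higher and blue lower, with an asterisk where the edgeR adjusted p was under 0.05. The calls under AA132 were for DUSP1, DUSP5 and DUSP10 on the higher side and for DUSP6 and SPRY4, at 30 µM, on the lower side.

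Read against all 17793 genes tested, 1 of the 10 genes was called at 3 µM AA132, higher (0.118% of all genes were called in either direction and 0.101% higher). At 6 µM 3 were called, all higher (1.07% and 0.866%), at 10 µM 2, both higher (1.41% and 1.03%), and at 15 µM 2, both higher (2.76% and 1.97%). At 30 µM 3 were called (7.05% of all genes), 1 higher (3.86%) and 2 lower (3.19%). At 0.1, 0.3 and 1 µM edgeR and DESeq2 each called 0 of the 10 genes, and edgeR called 0% of all genes. At these doses 1, 2 and 2 of the 10 had an unadjusted edgeR p under 0.05, as did 796, 981 and 1057 of the 17793 genes tested. The median log2 fold change of the 10 genes was 0.16 at 6 µM and -0.15 at 30 µM, with medians of 0.000 and -0.001 over all genes.

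Genes whose libraries did not overlap those of vehicle were counted as well. At 6 µM AA132 5 of the 10 genes lay wholly above vehicle and 2 wholly below, while 14.8% of all genes did not overlap. At 3 µM 3 lay above and 0 below (11.2% of all genes), at 10 µM 2 and 2 (10.3%), at 15 µM 3 and 3 (16.1%) and at 30 µM 2 and 2 (18.9%). At 0.1 µM 1 lay above (7.28% of all genes), at 0.3 µM 2 (8.25%) and at 1 µM 2 (7.86%), with 0 below at each. SPRED2 was among those above vehicle at 0.3, 1, 3 and 6 µM and DUSP5 at 0.3, 1, 3 and 6 µM, none of them called except DUSP5 at 6 µM. All these comparisons share the vehicle libraries.

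A linear trend on log10 dose, fitted to the 24 AA132 libraries without vehicle, asked which genes followed concentration. It was called for 7 of the 10 genes, 2 rising and 5 falling, against 18.7% of all genes (9.83% rising and 8.89% falling). DUSP1 rose by 0.11 log2 units per 10-fold dose (SE 0.02, edgeR adjusted p = 0.00107) and DUSP10 by 0.10 (SE 0.03, adjusted p = 0.0224). SPRY4 had a slope of -0.36 (SE 0.09, adjusted p = 0.00322), DUSP6 of -0.27 (SE 0.07, adjusted p = 0.00597) and SPRY2 of -0.14 (SE 0.04, adjusted p = 0.00406). SPRED1 had a slope of -0.14 (adjusted p = 0.0245) and SPRED2 of -0.11 (adjusted p = 0.0345). DUSP4 had a slope of -0.10 (SE 0.04, adjusted p = 0.0532), DUSP8 of 0.09 (0.124) and DUSP5, whose means peaked at 6 µM, of -0.06 (0.547). By DESeq2 the DUSP4 slope was called (-0.11, adjusted p = 0.0365).

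The slopes of DUSP1, DUSP6, SPRY2 and SPRY4 stayed called when any 1 of the 24 libraries was left out. Leaving out the whole 30 µM dose removed the calls for DUSP6 (-0.20, adjusted p = 0.0961), SPRY4 (-0.29, 0.0512), SPRED1 (-0.10, 0.156) and SPRED2 (-0.05, 0.423) and added one for DUSP8 (0.16, 0.00952). DUSP8 was also called without 30 µM library 2 (0.0411). The DUSP10 call was lost without 0.1 µM library 2 (0.0643). SPRED1 lost its call without 0.1 µM library 3 (0.0599) or 30 µM library 3 (0.0689). SPRED2 lost it without 0.1 µM library 3 (0.0527), 0.3 µM library 2 (0.0656) or 30 µM library 1, 2 or 3 (0.0929, 0.0701 and 0.0971). The DUSP4 slope passed the threshold without any 1 of 7 libraries: 0.1 µM library 2, 0.3 µM library 1, 1 µM library 1, 3 µM library 3, 6 µM library 1 or 2 and 10 µM library 2 (adjusted p from 0.0288 to 0.048).

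**Figure D3:**
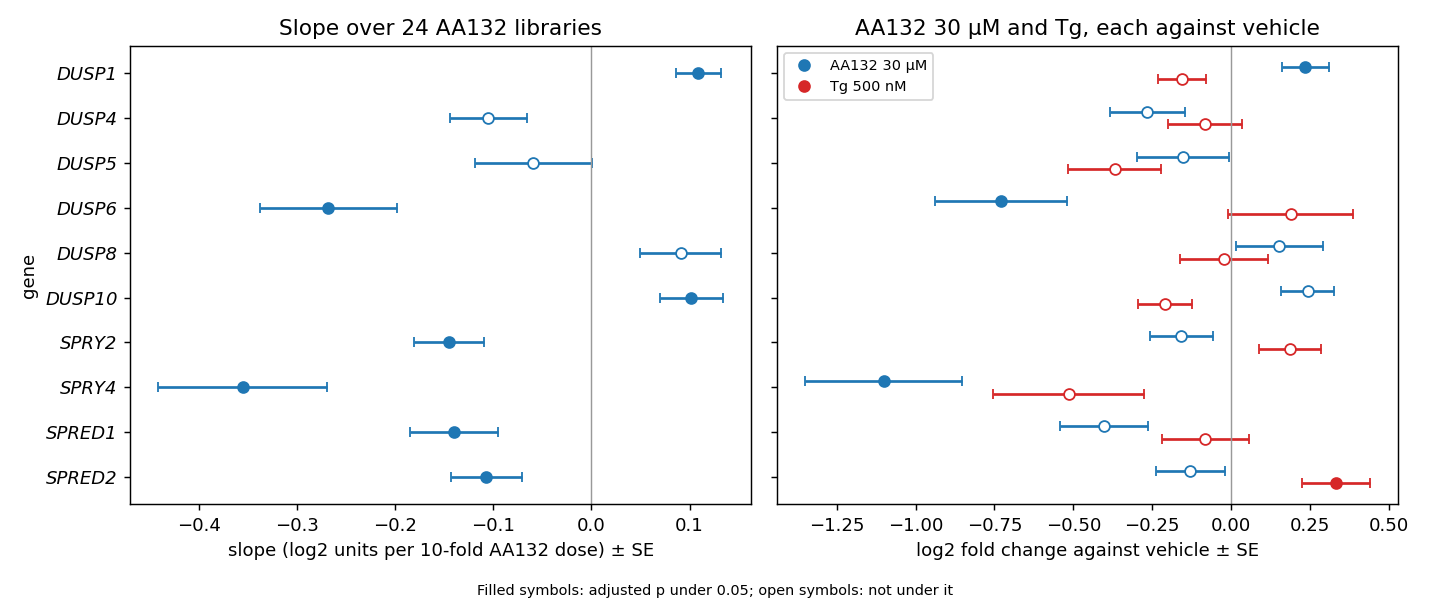
Left, trend on log10 dose over the 24 AA132 libraries (log2 units per 10-fold dose, ± SE) for each gene; right, log2 fold change against vehicle (± SE) at 30 µM AA132 in blue and under Tg in red, with filled symbols where the edgeR adjusted p was under 0.05. DUSP1 and DUSP10 lie right of 0 under AA132 and left of it under Tg, and DUSP6 and SPRY2 the reverse.

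Tg, a strong ER stress, called 1 of the 10 genes, higher, while it called 31.2% of all genes (16.2% higher). Libraries under Tg lay wholly above vehicle for 2 of the 10 genes and wholly below for 3, and 38.2% of all genes did not overlap. SPRED2 rose from 17.7 ± 3.25 CPM in vehicle to 22.4 ± 1.75 CPM (log2 fold change 0.33, SE 0.11, edgeR adjusted p = 0.0172). That call was lost without Tg library 1 (0.0746) or 3 (0.0856) and without the low vehicle library 1, where the fold change was 0.18 (adjusted p = 0.188). DUSP5 stood at 5.11, 4.80 and 5.31 CPM under Tg, below every vehicle library, and just missed the threshold (log2 fold change -0.37, adjusted p = 0.0551). It was called with a replicate block (0.0437) and without vehicle library 2 (-0.43, 0.0403). DUSP10, at 10.3, 10.6 and 11.2 CPM, also lay below vehicle (-0.21, adjusted p = 0.0655) and was called without vehicle library 1 (-0.27, 0.0291). SPRY4 had the largest Tg fold change of the 10 and was not called: at 1.304, 1.692 and 1.334 CPM it lay below every vehicle library (-0.51, adjusted p = 0.103). Tg gave the lowest of the 11 condition means for DUSP1, DUSP5, DUSP8 and DUSP10 and the highest for DUSP6 and SPRY2. The Tg libraries stood clear of the next condition in that order for DUSP5 and DUSP10 and overlapped it for the other 4.

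AA132 at 30 µM and Tg were compared with each other directly, without vehicle. This called 5 of the 10 genes, 2 higher and 3 lower under AA132, against 29.8% of all genes (14.3% higher and 15.5% lower). DUSP1 was higher under AA132, at 92.6 ± 2.60 against 70.6 ± 4.23 CPM (log2 difference 0.39, SE 0.07, edgeR adjusted p = 0.000115). DUSP10 was higher too, at 14.7 ± 0.46 against 10.8 ± 0.46 CPM (0.45, adjusted p = 0.00011). DUSP6 was lower under AA132, at 2.83 ± 0.28 against 5.36 ± 0.68 CPM (-0.92, SE 0.21, adjusted p = 0.000835). SPRED2 (-0.46, adjusted p = 0.00122) and SPRY2 (-0.34, adjusted p = 0.00812) were also lower. Libraries did not overlap between the treatments for these 5 genes and for DUSP5, SPRY4 and SPRED1, 8 of the 10, against 46.8% of all genes. SPRY2 lost its call without AA132 library 3 (-0.24, adjusted p = 0.0939) or Tg library 3 (0.0538), and with no filter on low counts (0.101). SPRED1 gained one without AA132 library 1 (-0.43, 0.0429), from -0.32 (0.0816). Doses of unlike agents are not matched, so the sizes say nothing of potency.

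AA147 at 10 µM called 0 of the 10 genes by edgeR and by DESeq2, while edgeR called 0.0225% of all genes. An unadjusted edgeR p under 0.05 was seen for 2 of the 10 and for 1211 of the 17793 genes tested. Libraries did not overlap vehicle for 2 of the 10 (7.46% of all genes). DUSP1 stood at 96.7, 88.4 and 98.8 CPM, above every vehicle library (log2 fold change 0.27, adjusted p = 0.312), and SPRY4 at 1.64, 1.48 and 1.22 CPM, below every vehicle library (-0.51, adjusted p = 0.705). At the matched dose of 10 µM, edgeR called 0 of the 10 genes between AA132 and AA147 (0.0674% of all genes), and DESeq2 called 1, SPRY2. Here 2 of the 10 had an unadjusted edgeR p under 0.05, as did 1425 of the 17793 genes tested. Libraries did not overlap for 3 of the 10 (11.3% of all genes). SPRY2 had 6.07 ± 0.36 CPM under AA132 and 8.14 ± 0.52 CPM under AA147, with no overlap (log2 difference -0.42, edgeR adjusted p = 0.108, DESeq2 adjusted p = 0.0284). DUSP10 had 15.9 ± 0.47 against 13.2 ± 0.55 CPM (0.27, edgeR adjusted p = 0.317). For DUSP1 the difference was 0.03, with an interval of 2 SE either side from -0.11 to 0.18. For DUSP6 that interval ran from -0.49 to 0.34 and for SPRY4 from -0.90 to 0.12.

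Likeness between genes across condition means is given as a description, because the means share libraries and scaling. Over the 10 conditions without Tg, Pearson's r of mean log2 CPM was 0.87 between DUSP1 and DUSP8, 0.79 between DUSP1 and DUSP10 and 0.91 between DUSP8 and DUSP10. It was 0.88 between DUSP6 and SPRY4, 0.91 between DUSP6 and SPRED1 and 0.87 between DUSP4 and DUSP6. DUSP1 ran opposite to SPRY4 (-0.74), SPRY2 (-0.67) and DUSP6 (-0.60). For DUSP5 it was 0.77 with SPRED2, 0.71 with DUSP4, 0.54 with both DUSP8 and DUSP10, 0.52 with DUSP6 and 0.25 with DUSP1. With Tg included, DUSP5 had 0.75 with DUSP10, 0.63 with DUSP4, 0.60 with DUSP1 and 0.31 with SPRED2. Outside the 10, the genes most like DUSP6 over all 11 conditions were METTL1 (r = 0.977), DAZAP1 (0.970) and ETV4 (0.966), out of 53 genes above 0.9. Those most like SPRY4 were KAT2B (0.954), RNF126 (0.945) and MEIS2 (0.939), out of 27 genes above 0.9. Without Tg, METTL1 remained closest to DUSP6 (0.990), followed by CSNK1G2 and ARHGEF40 (both 0.976), out of 214 genes above 0.9. LSM14B (0.977), TKFC (0.973) and SCIN (0.970) were then closest to SPRY4, out of 142 genes above 0.9.

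A list of 13 transcripts known to respond to ERK activity, also chosen with earlier results of these data known, was set beside the feedback genes. At 30 µM AA132, 7 of the 13 were called lower, against 3.19% of all genes, and 9 had an unadjusted p under 0.05, as did 3644 of the 17793 genes tested. ETV4, an ETS factor, fell by 1.24 on the log2 scale (edgeR adjusted p = 1.39e-05), its relative ETV1 by 0.89 (adjusted p = 6.24e-05) and the immediate early gene IER3 by 0.83 (adjusted p = 0.00126), and these 3 calls held when any 1 library was left out. The count was 4 without 30 µM library 2 or library 3. The median log2 fold change of the 13 was -0.35. At that dose 0 of the 13 were called higher, and 3 had values above 0: FOSL1 (0.23), MYC (0.22) and EPHA4 (0.04). At 6 µM FOSL1 was called higher (0.73, edgeR adjusted p = 0.0336), as were 0.866% of all genes. There 3 of the 13 were called lower, and 1.07% of all genes were called in either direction. Under Tg, 3 of the 13 were called higher and 3 lower, against 16.2% of all genes higher and 31.2% in either direction, with a median of -0.06. FOS (0.95, adjusted p = 0.000234), ETV5 (0.93, adjusted p = 1.97e-07) and ETV4 (0.48, adjusted p = 0.025) rose, and CCND1 (-0.89, adjusted p = 6.63e-07), IER2 (-0.47, adjusted p = 0.0016) and EPHA2 (-0.24, adjusted p = 0.0451) fell. The ETV4 call under Tg was lost without Tg library 1 or 3 or vehicle library 2 or 3, and that of EPHA2 without Tg library 1 or 2 or vehicle library 1 or 3 (adjusted p up to 0.17 and 0.171). ETV4 thus went the way of DUSP6 at 30 µM AA132, and the libraries of ETV4 under AA132 lay below those under Tg (6.16 against 20.3 CPM on average, log2 difference -1.72, adjusted p = 1.89e-09).

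**Figure D4:**
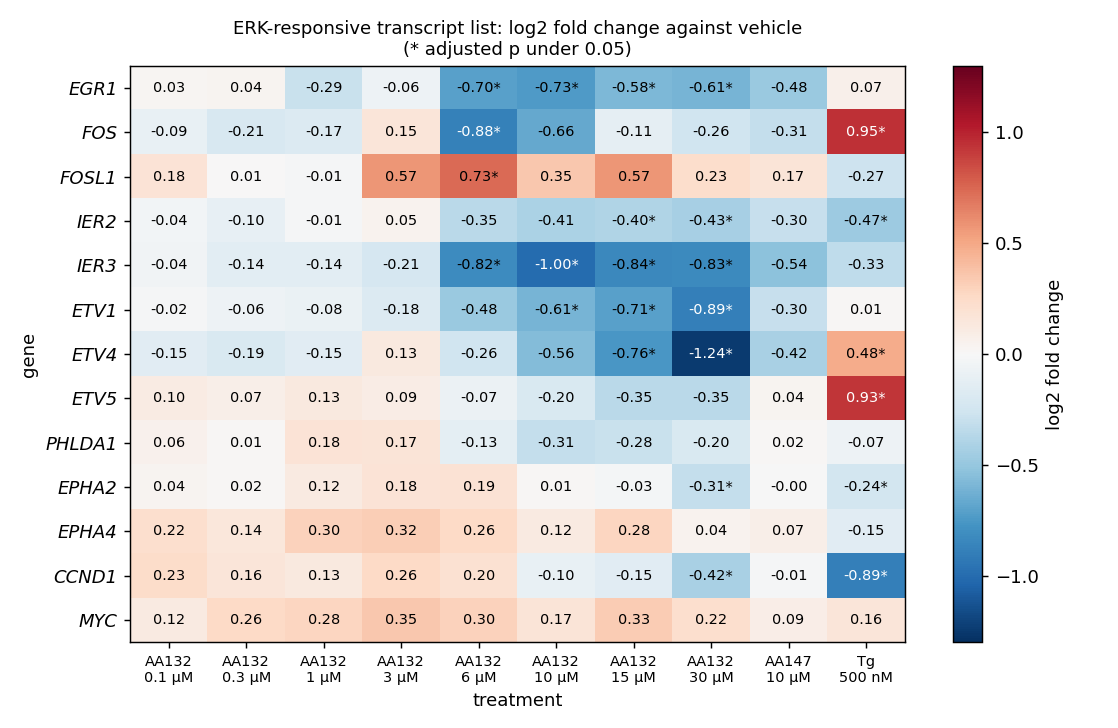
Fitted log2 fold change against vehicle for 13 transcripts listed as ERK-responsive (rows) under each treatment (columns), red higher and blue lower, with an asterisk where the edgeR adjusted p was under 0.05. At 30 µM AA132 the 7 asterisks are all on lower values, while under Tg 3 are on higher and 3 on lower values.

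Of the 7 genes of these families not among the 10 (DUSP2, DUSP7, DUSP9, DUSP16, SPRY1, SPRY3 and SPRED3), 30 µM AA132 called 0 by edgeR, against 7.05% of all genes, and 0 by DESeq2. An unadjusted edgeR p under 0.05 was seen for 1 of the 7 and for 3644 of the 17793 genes tested. Tg called 2 of the 7, against 31.2% of all genes: DUSP16, a JNK phosphatase, rose by 0.47 (edgeR adjusted p = 0.00137), and DUSP9 fell by 0.56 (adjusted p = 0.0308), a call lost without Tg library 2 or vehicle library 1 or 2 (adjusted p up to 0.151).

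Of 24 genes of the receptor, Ras, Raf and ERK cascade, Tg called 5 higher and 5 lower, against 16.2% of all genes higher and 31.2% in either direction. The count of 10 was 15 (9 higher) without vehicle library 2, 13 (8 higher) without vehicle library 3 and 7 (2 higher) without Tg library 1 or 3 or vehicle library 1. The receptor genes FGFR3 (-0.82, edgeR adjusted p = 6.22e-06), FGFR1 (-0.64, adjusted p = 8.29e-11) and FGFR4 (-0.50, adjusted p = 0.000457) fell, and the adaptor gene SHC1 rose (0.58, adjusted p = 3.66e-08). NRAS (0.39, adjusted p = 0.0105) and SOS2 (0.26, adjusted p = 0.0494) were also called higher. NRAS lost that call without vehicle library 1 (0.145), and SOS2 without Tg library 1 or 3 or vehicle library 1 (up to 0.51). At 30 µM AA132, 2 of the 24 were called, against 7.05% of all genes: HRAS (-0.36, adjusted p = 0.0115) and FGFR2 (-0.24, adjusted p = 0.0172). HRAS lost its call without 30 µM library 1 or 2 or vehicle library 1 (up to 0.146) and FGFR2 without 30 µM library 3 or vehicle library 2 (up to 0.086). Without vehicle library 1 the count was 5, and without any 1 library of 30 µM or vehicle library 2 it was 1.

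Of 14 genes of the JNK and p38 cascades, Tg called 1 higher and 4 lower, against 31.2% of all genes, and 30 µM AA132 called 1 lower, against 7.05% of all genes. MAP2K6, a kinase that activates p38, fell under both. Its log2 fall was 2.10 under Tg (edgeR adjusted p = 3.66e-12) and 1.19 at 30 µM AA132 (adjusted p = 3.14e-06). Both calls held when any 1 library was left out. The fall of MAP2K6 was larger under Tg in the direct comparison (log2 difference 0.91, adjusted p = 0.000128). Under Tg, MAP3K5 (-0.46, adjusted p = 2.63e-05) and MAP2K3 (-0.33, adjusted p = 0.00451) also fell and MAPK13, a p38 kinase, rose (0.36, adjusted p = 0.000423). MAP2K3 lost its call without vehicle library 1 (0.0637). Without vehicle library 1 the count at 30 µM AA132 was 3.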

How the data were processed

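The deposited table gives expected counts for each gene as the authors made them, described as linear total reads per the file headers. The genome build was GRCh38.p7, per the submitters' processing notes, and the aligner, counter, annotation and use of strand are not given in the sources used here, so reads from overlapping antisense genes cannot be told apart. The value 0.009 fills 43.51% of cells in place of 0 and was set to 0. A further 3.22% of cells are fractional and were rounded, none of them of the 10 genes. The 98 of 38074 entries that shared 45 names were added together, and 28 names that had turned into dates were kept apart.

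TMM-scaled counts that passed the edgeR filter on low counts were tested by quasi-likelihood (edgeR 4.0.16, R 4.3.3). All 11 conditions entered 1 fit (17793 genes), and the dose slope used the 24 AA132 libraries (17554 genes). A gene was called where its p, adjusted by Benjamini-Hochberg over all genes tested, was under 0.05. CPM use the scaled library sizes. The common dispersion gave a coefficient of variation of 9.09% between libraries. Alternatives were DESeq2 1.42.0, RLE scaling, no filter, a replicate block, only the conditions compared, a minimum absolute log2 fold change of 1, no 30 µM dose and each library left out. The model was also run on counts simulated from its own fitted means and spread. Such a run cannot show whether the columns of a condition are separate cultures. Positions and transcript lengths are from GENCODE v44 on GRCh38, and upstream sequences from RefSeq on GRCh38.p14. The 10 genes and the lists were chosen with earlier results of these data known. All 10 genes are named, and from each list at most the 3 largest called changes in each direction under Tg and under 30 µM AA132. Genes of the ERK-responsive list with a log2 fold change above 0 at 30 µM AA132 are named as well. Genes of like pattern were sought for the 2 genes with the largest fold changes against vehicle, SPRY4 and DUSP6.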

Additional observations from a re-analysis of the deposited data

How the results depend on the processing

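Of the 12 calls of the 10 genes against vehicle, 12 held with RLE scaling, 12 with DESeq2, 12 with a replicate block, 10 with no filter on low counts and 4 when any 1 library of the groups compared was left out. No call reversed its direction under these alternatives. With only the 2 conditions compared in the fit, the counts of genes called against vehicle were 0 under Tg and 0 at 3, 6, 10, 15 and 30 µM AA132. The 5 calls of 30 µM AA132 against Tg all held in such a fit. Fits of 2 conditions estimate the spread from fewer libraries, and the part of this in the lost calls was not tested. A minimum absolute log2 fold change of 1 left 1 gene at 30 µM AA132 (SPRY4) and 0 in each other comparison with a call. DESeq2 called 4 genes at 10 µM AA132, 4 at 30 µM, 8 for the slope and 1 between the compounds. The edgeR slope count was 4 without the 30 µM dose. Across fits that left out 1 library, the count ran from 0 to 2 under Tg, 0 to 1 at 3 µM, 1 to 4 at 6 µM, 0 to 2 at 10 µM, 2 to 3 at 15 µM, 1 to 4 at 30 µM, 4 to 6 for 30 µM AA132 against Tg and 5 to 8 for the slope, and it was 0 in all of them for AA147, for the 3 lowest doses and between the compounds. No pairing of libraries by number was seen, though the labels do not say what the numbers mean. Deviations of same-numbered libraries of different conditions had r from -0.147 to 0.183 (median 0.001). Those of libraries with different numbers had r from -0.143 to 0.222 (median -0.002). The replicate block moved the count under Tg to 2 and no other count. Low counts limit SPRY4 and DUSP6 most.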
